A study of Rattus norvegicus with 16 samples.

Results

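The comparison set the solitary nucleus (Sol) against the medial vestibular nucleus (MVe), a pair of hindbrain nuclei of the rat, across all annotated genes. Its members were the 4 arrays whose titles name Sol and the 4 whose titles name MVe, 8 of the 16 arrays in the series. The arrays were paired by treatment, and the 15037 genes with a symbol were each represented by their brightest probe set. The animals were male Wistar rats of 8 to 10 weeks, treated for 60 minutes. One treatment was sevoflurane, an inhaled anesthetic, at 2.4%, and its control was O2 alone. The other was propofol, an intravenous anesthetic, started with a bolus of 10 mg/kg and infused at 36 mg/kg per hour, and its control was Intralipos, a 10% lipid emulsion given by the same infusion. The inspired gas held 40% oxygen, at 6 L/min, in every group. Each nucleus was cut by laser from Nissl-stained frozen sections 30 µm thick, and labelled cDNA was made from 100 ng of total RNA. Each nucleus had 1 array per treatment, so treatments stood in for replicates. Which rat gave which region is not labelled, so a Sol and an MVe array may share a rat, and p-values measure only the spread between these samples and may be too small.

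The solitary nucleus receives the visceral afferents of the vagus and glossopharyngeal nerves, which carry signals from the heart, lungs, gut and taste buds. It holds the A2 group of catecholamine neurons and many neurons that release peptides, and it borders the area postrema and the dorsal motor nucleus of the vagus. The medial vestibular nucleus lies beside it under the floor of the fourth ventricle. It receives the afferents of the semicircular canals and the axons of cerebellar Purkinje cells, and many of its neurons fire steadily at high rates and project over long distances to eye and neck motor neurons.

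Values are deposited log2 signals, and a difference is the mean of the 4 paired differences, Sol minus MVe, with its moderated standard error from limma (±). Values for the 4 arrays of a nucleus are given in the order sevoflurane, O2, propofol and Intralipos. A gene passed the test when its limma p, adjusted by the Benjamini-Hochberg method over the 15037 genes, was under 0.05. The 1153 negative-control probe sets had array medians from 4.57 to 5.04. Where a gene that passed lay under these medians on every array of a nucleus, its measured difference is only a description. A bound against these controls follows, the fold that separates the other nucleus from them (at least N-fold). Some genes lay under them on 1 to 3 of the 4 arrays of the dimmer nucleus, so their differences rest partly on signal at background. Among those named below these are Agtr1a, Aldh1a2, Casr, Chat, Cpne5, Drgx, Ecel1, Gabre, Hoxa6, Htr1a, Kcnk2, Oprm1, Pdyn, Pgr15l, Prph, Slc6a2 and Tbx20 in MVe and Cckbr, Crh, Kcnj13, Npy5r, Pcp2, Plvap, Scn4b and Slc17a7 in Sol. In bulk tissue, fewer cells of a type and less RNA per cell cannot be told apart.

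The array values fell into a pair of sets. The sevoflurane and O2 arrays of both nuclei had means of 7.24 to 7.26 over non-control probe sets, those given propofol or Intralipos had 7.01 to 7.03, and pairing by treatment keeps every difference within a set. The interquartile range over genes was 5.14 on the MVe O2 array and 5.30 to 5.53 on the other 7 arrays. Genes are not independent replicates, and Pearson correlations across them were 0.986 to 0.994 among the Sol arrays and 0.986 to 0.993 among the MVe arrays. Between the nuclei under the same treatment they were 0.960 to 0.964.

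Catecholamine genes (10 of 12 measured) and Hox genes of groups 4 and 5 (4 of 4) stood higher in Sol, while genes of fast firing and thick axons (24 of 24) and of myelin (16 of 17) stood higher in MVe. These lists were compiled with earlier results of these data known, so their counts describe the members and test nothing. Of all genes tested 32.3% passed in either direction. The 2673 genes higher in Sol were 17.8% and the 2183 higher in MVe were 14.5%. Of the genes that passed, 4714 had the same sign in 4 of 4 pairs. In 2073 genes every Sol array exceeded every MVe array, and in 1795 the reverse held, together 25.7% of those tested. Most differences were small, with a median absolute value of 0.31 over all genes. A difference of at least 1 log2 unit was found in 1174 genes past the test higher in Sol and 894 higher in MVe, of at least 2 in 339 and 225, and of at least 4 in 54 and 24. The share of passing genes that were higher in Sol was 55.0% on the deposited scale. It was 39.7% after centring each array on its median and 49.7% after quantile normalization, and median centring moved the median difference of all genes from -0.02 to -0.17. The split of small differences between the nuclei therefore depended on the scaling, and directions below refer to the deposited scale.

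**Figure D1:**
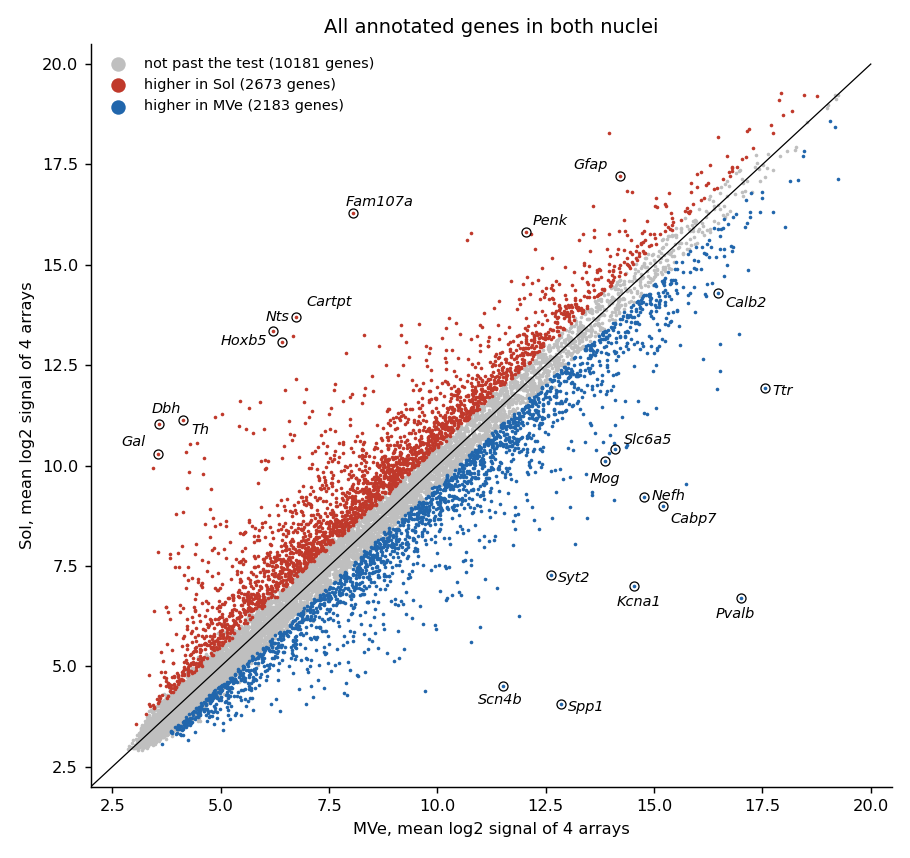
Mean log2 signal of the 4 MVe arrays (x axis) against the mean of the 4 Sol arrays (y axis) for 15037 genes, 1 point per gene, with the line of equality. Genes past limma's test are red where higher in Sol (2673) and blue where higher in MVe (2183), others are grey, and Dbh, Th and Pvalb lie among the points farthest from the line.

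The catecholamine enzymes Th and Dbh, which mark the A2 neurons of the solitary nucleus, separated the nuclei on every array. Th encodes tyrosine hydroxylase, the rate-limiting enzyme of catecholamine synthesis. Its signal in Sol was 11.03, 11.25, 11.40 and 10.89, and in MVe 4.02, 3.84, 4.18 and 4.46. All MVe values lay below the negative-control median of their array. The difference was 7.02 ± 0.19 (adjusted p = 3.67e-09), at least 80.2-fold against the negative controls. Dbh encodes dopamine beta-hydroxylase, which makes noradrenaline from dopamine. It stood at 10.70, 11.88, 11.39 and 10.16 in Sol and at 3.76, 3.44, 3.43 and 3.68 in MVe, again below the negative controls. The Dbh difference of 7.46 ± 0.28 (3.24e-08) was at least 74.3-fold, and the spread among the Sol arrays was wider for Dbh (SD 0.75) than for Th (SD 0.23).

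Pvalb and Kcna1, which mark fast-firing neurons, separated the nuclei in the opposite direction. Pvalb encodes parvalbumin, a fast calcium buffer. Its signal was 6.50, 6.37, 7.30 and 6.65 in Sol and 16.82, 16.73, 17.12 and 17.37 in MVe. This was the largest difference of any gene named here, -10.31 ± 0.18 (adjusted p = 3.51e-10), and each MVe array exceeded each Sol array. Kcna1 encodes the Kv1.1 potassium channel, which limits repetitive firing at the axon and terminal. It was at 7.31, 6.81, 6.55 and 7.30 in Sol and at 15.05, 14.48, 14.50 and 14.15 in MVe, a difference of -7.55 ± 0.20 (3.65e-09). The labels of the 8 arrays thus went with the marker genes on each array.

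**Figure D2:**
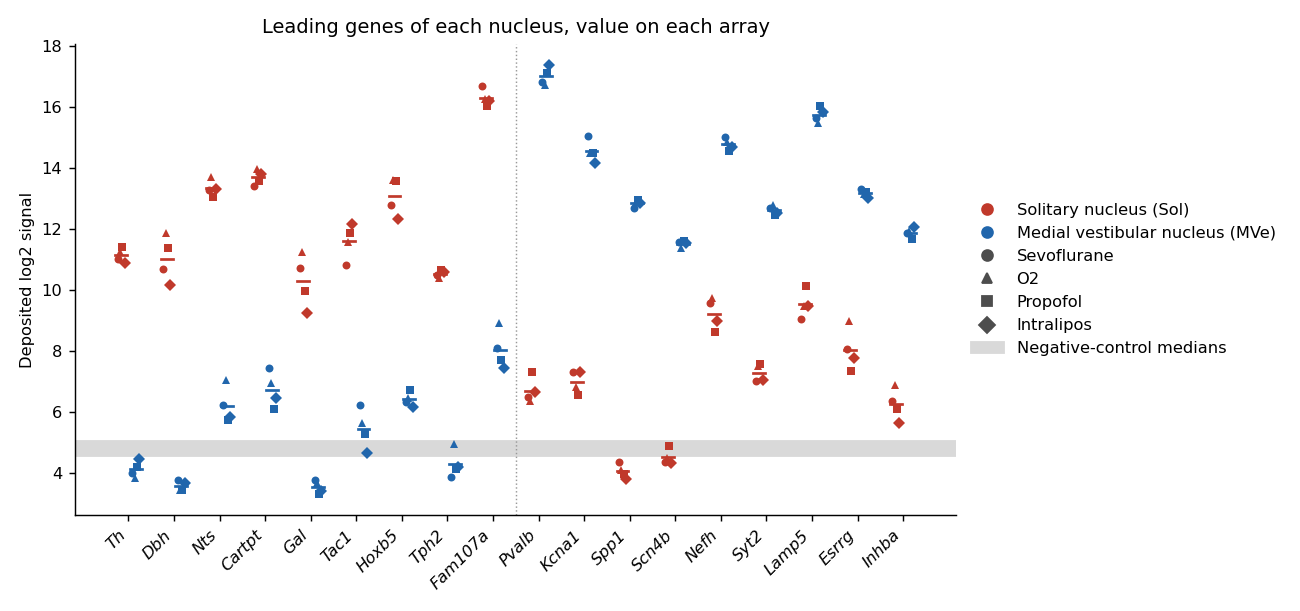
Deposited log2 signal (y axis) of 9 genes that led in Sol and 9 that led in MVe (x axis, left and right of the dotted line), with 1 point per array, a symbol for each treatment and a bar for the mean of 4 arrays. The grey band spans the array medians of the negative controls (4.57 to 5.04), and in every gene shown the 4 arrays of one nucleus do not overlap those of the other.

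The sequences upstream of 4 genes are shown: the catecholamine markers Th and Dbh, the peptide gene Cartpt, and Pvalb from the other direction. The choice is not by size alone. Fam107a and the peptide gene Nts had larger differences than Cartpt and windows without the element described next, and they are not shown. Each is the 250 bases before the start of the gene in the RefSeq table for GRCr8, written 5′ to 3′ on the gene's strand, with the cyclic AMP response element TGACGTCA in capitals where a search of both strands found it. The windows are chr1:207508219-207508468 (minus strand) for Th, chr3:30886078-30886327 (plus) for Dbh, chr2:32991236-32991485 (minus) for Cartpt and chr7:111666290-111666539 (minus) for Pvalb.
Th: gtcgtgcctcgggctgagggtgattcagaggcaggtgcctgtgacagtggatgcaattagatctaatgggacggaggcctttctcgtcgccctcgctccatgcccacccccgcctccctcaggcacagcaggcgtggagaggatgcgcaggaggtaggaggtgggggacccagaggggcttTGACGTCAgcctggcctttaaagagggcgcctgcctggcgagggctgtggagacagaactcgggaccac
Dbh: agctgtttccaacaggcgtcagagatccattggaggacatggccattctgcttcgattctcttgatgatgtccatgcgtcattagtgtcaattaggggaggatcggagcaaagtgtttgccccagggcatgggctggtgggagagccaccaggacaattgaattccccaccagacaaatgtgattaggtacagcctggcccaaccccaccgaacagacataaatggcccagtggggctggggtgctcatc
Cartpt: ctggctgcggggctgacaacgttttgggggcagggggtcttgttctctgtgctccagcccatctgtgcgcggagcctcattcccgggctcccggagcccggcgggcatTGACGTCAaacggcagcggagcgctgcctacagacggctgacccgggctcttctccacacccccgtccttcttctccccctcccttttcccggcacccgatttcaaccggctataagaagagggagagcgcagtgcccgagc
Pvalb: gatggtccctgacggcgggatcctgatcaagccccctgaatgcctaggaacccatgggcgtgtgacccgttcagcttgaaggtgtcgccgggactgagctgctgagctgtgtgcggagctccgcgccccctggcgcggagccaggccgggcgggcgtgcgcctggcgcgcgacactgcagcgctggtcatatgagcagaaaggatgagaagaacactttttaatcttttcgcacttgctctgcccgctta
The element began 69 bases before the start in Th, at -69, and at -142 in Cartpt, and it was not in these letters in Dbh or Pvalb. It occurred in 531 of 33469 promoter windows of the same length in the table, 1.59%. Among the 15 genes with the largest differences in Sol, 12 had a window and 2 of these held the element, Th and Cartpt, both shown here. Among the 15 leading in MVe, 13 had a window and 1, Neurod6, held it at -53. The homeodomain core TAATTA, found in 1626 windows (4.86%), occurred in 1 of the 12 windows of the Sol genes (Tac1, at -111) and in 0 of the 13 of the MVe genes. A match is a description of the letters and not evidence of binding.

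Of the 12 measured genes of catecholamine synthesis, transport and breakdown, 10 were higher in Sol, 0 in MVe and 2 did not pass, with a list median of 2.22 beside -0.02 over all genes. Ddc, the decarboxylase that follows Th, was at 10.75, 11.03, 10.48 and 9.66 in Sol and at 6.99, 6.46, 6.70 and 5.68 in MVe (4.02 ± 0.18, adjusted p = 8.26e-08). The vesicular monoamine transporter gene Slc18a2 was at 7.63, 7.01, 8.06 and 7.15 in Sol and below the negative controls in MVe, at least 6.25-fold higher in Sol. Maoa and Maob, the monoamine oxidases, differed by 2.53 ± 0.18 and 2.20, and Gch1, which makes the cofactor of Th, by 2.24 ± 0.27. The adrenaline-forming enzyme gene Pnmt had a Sol mean of 5.41 ± 0.48 and an MVe mean of 3.87 ± 0.22 (SD, n = 4), a difference of 1.54 ± 0.23. It lay below the negative controls on all MVe arrays and stood at least 0.59 log2 units above them in Sol. Its Sol mean was under the medians of the background probe sets. The noradrenaline transporter gene Slc6a2 was 1.29 higher in Sol, whereas the dopamine transporter gene Slc6a3 (0.04, adjusted p = 0.876) and the vesicular transporter gene Slc18a1 (-0.35, 0.128) did not pass. With median centring 1 member was higher in MVe.

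Tph2, which encodes the neuronal enzyme of serotonin synthesis, was among the 15 largest differences. Its signal was 10.48, 10.39, 10.65 and 10.60 in Sol, while all 4 MVe values, 3.87, 4.95, 4.15 and 4.21, lay below the negative controls (6.24 ± 0.21, at least 52.4-fold). Genes that define serotonin neurons did not pass beside it. The serotonin transporter gene Slc6a4 had means of 4.84 in Sol and 4.86 in MVe (-0.02 ± 0.21, adjusted p = 0.960), and the serotonin neuron transcription factor gene Fev had 4.91 and 5.26 (-0.35 ± 0.20, 0.217). Of the 5 measured members of this list, Tph2 and the organic cation transporter gene Slc22a3 (0.65 ± 0.15, at least 1.20-fold) were higher in Sol and 3 did not pass.

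Neuropeptide genes made up several of the largest differences in Sol, although most of the list did not pass the test. Nts, the neurotensin precursor gene, was at 13.28, 13.70, 13.07 and 13.33 in Sol and at 6.24, 7.05, 5.73 and 5.83 in MVe (7.13 ± 0.18, adjusted p = 3.30e-09, 140-fold). Cartpt, the precursor of a peptide that reduces feeding, was at 13.40, 13.97, 13.59 and 13.82 against 7.44, 6.95, 6.09 and 6.45 (6.96 ± 0.24, 1.70e-08). Gal, the galanin gene, was at 10.74, 11.26, 9.96 and 9.23 in Sol and below the negative controls on each MVe array, at least 44.6-fold. In these genes the arrays of the nuclei were several log2 units apart. Adcyap1, which encodes the peptide PACAP, followed with 4.90 ± 0.18, then Grp, the gastrin-releasing peptide gene, which lay below the negative controls on all MVe arrays (4.82 ± 0.39, at least 15.7-fold). Gcg, the proglucagon gene from which GLP-1 is made, was at 8.04, 8.68, 7.72 and 7.57 in Sol and under the negative controls in MVe (3.90 ± 0.20, at least 9.10-fold). Somatostatin (Sst, 3.23 ± 0.22), neuropeptide Y (Npy, 2.84 ± 0.23) and cholecystokinin (Cck, 2.61 ± 0.23) were also higher in Sol. Over the 43 measured neuropeptide genes 14 were higher in Sol, 3 in MVe (Crh at -1.10 ± 0.20, Nppa at -1.09 ± 0.20 and Adm at -0.60 ± 0.21) and 26 did not pass. Adm was below the negative controls on all Sol arrays and above them on 2 of 4 MVe arrays. The list median of 0.11 turned to -0.05 with median centring and was 0.17 with quantile normalization.

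Tachykinin and opioid genes included ligands and receptors that were higher in Sol. Tac1, the substance P precursor gene, was at 10.81, 11.56, 11.88 and 12.16 in Sol and at 6.22, 5.64, 5.27 and 4.66 in MVe (6.16 ± 0.36, adjusted p = 5.61e-07). Tacr3, the neurokinin B receptor gene, was at 10.91, 10.79, 11.27 and 10.10 against 7.32, 6.58, 6.52 and 6.29 (4.09 ± 0.20). Both genes had no overlap between the nuclei. Of the 6 tachykinin genes 3 were higher in Sol and 3 did not pass, among them Tac3 (-0.49, adjusted p = 0.245). The third, Tacr1, at 0.84 ± 0.22, did not pass without the propofol pair (adjusted p = 0.0783), and without the Intralipos pair 1 member was higher in MVe.

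Oprm1, the mu opioid receptor gene, was at 9.97, 10.10, 9.99 and 9.30 in Sol and at 5.67, 3.71, 3.80 and 3.87 in MVe, where the sevoflurane array was the highest (5.58 ± 0.30, adjusted p = 2.85e-07). Only that MVe array lay above its negative controls, and with the others set to the controls the difference was 28.2-fold. The enkephalin precursor gene Penk was at 15.50, 15.88, 16.49 and 15.38 in Sol and at 12.01, 11.86, 12.35 and 11.94 in MVe (3.78 ± 0.18, 13.7-fold), and the dynorphin precursor gene Pdyn differed by 3.63 ± 0.25. Of the 8 opioid genes 5 were higher in Sol, 1 in MVe and 2 did not pass, Pomc (-0.17, adjusted p = 0.517) and Pnoc (-0.11, 0.679). The delta receptor gene Oprd1 (-0.60 ± 0.19) lost its call without the sevoflurane pair (0.168) or the Intralipos pair (0.136). The kappa receptor gene Oprk1 (1.03 ± 0.26) lost it without the O2 (0.0636) or propofol pair (0.0558).

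Receptors through which hormones and peptides act on the visceral hindbrain included many that were higher in Sol. Of 44 measured genes of this list, which also holds a few ligands, 24 were higher in Sol, 4 in MVe and 16 did not pass, with a median of 0.67. Over all genes 17.8% were higher in Sol and 14.5% in MVe. The 24 became 15 and the 4 became 2 when genes with a higher-nucleus mean under the median gene value were left out. Some of the 24 were near background, such as Galr2 (at least 1.03-fold), Prlhr (at least 1.04-fold) and Casr (1.05-fold against the controls). Galr1, a galanin receptor gene, was at 10.15, 10.58, 10.03 and 9.79 in Sol and at 6.75, 6.29, 5.53 and 5.54 in MVe (4.11 ± 0.20, adjusted p = 1.46e-07). Calcr, the calcitonin receptor gene that also serves amylin, was at 8.77, 8.64, 7.36 and 6.07 in Sol and below the negative controls in MVe (3.89 ± 0.42, at least 7.41-fold). Among the Sol arrays it was lowest with Intralipos. Npy2r (2.92 ± 0.20, at least 5.06-fold), the angiotensin receptor gene Agtr1a (2.86 ± 0.26), the neurotrophin gene Bdnf (2.16 ± 0.21), Trhr (2.06 ± 0.24), the vasopressin receptor gene Avpr1a (1.95 ± 0.18) and the melanocortin receptor gene Mc4r (1.71 ± 0.23, at least 2.15-fold) were higher in Sol as well. The 4 genes higher in MVe were the gastrin receptor gene Cckbr (-2.92 ± 0.27), the apelin ligand gene Apln (-1.46 ± 0.17), Npy5r (-1.25 ± 0.17) and the orexin receptor gene Hcrtr2 (-0.76 ± 0.24). Glp1r, the receptor gene for GLP-1, had means of 3.96 in Sol and 3.88 in MVe and did not pass (0.08 ± 0.16, adjusted p = 0.775).

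Some of these receptors are shared with the area postrema, which adjoins Sol. Of its 8 measured marker genes 5 were higher in Sol, 1 in MVe and 2 did not pass, with a median of 0.58. Calcr led the list, and Gfral, the receptor gene for GDF15, was at 7.05, 7.33, 7.84 and 7.29 in Sol and at 5.68, 6.59, 6.34 and 5.75 in MVe (1.28 ± 0.18). The remaining 3 calls, for Casr, Ramp3 and Gipr, were lost with median centring (adjusted p = 0.0732, 0.098 and 0.0751), Gipr lay below the negative controls on all 8 arrays, and the count of 5 fell to 2 without the sevoflurane pair and 3 without the propofol pair. Plvap, which marks the leaky capillaries of that organ, was higher in MVe (-0.92 ± 0.16), and the part of area postrema tissue in the Sol values was not tested.

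Hox genes of groups 4 and 5, which belong to the hindbrain to spinal cord boundary, were higher in Sol. Hox factors set position along the body axis, with low paralog numbers toward the head. Hoxb5 was at 12.80, 13.62, 13.57 and 12.33 in Sol and at 6.33, 6.46, 6.73 and 6.17 in MVe (6.66 ± 0.19, adjusted p = 4.61e-09). Hoxc4 was at 12.13, 12.09, 12.13 and 11.17 against 6.78, 6.29, 6.53 and 6.38 (5.39 ± 0.19). In both genes each Sol array stood far above each MVe array. All 4 measured genes of groups 4 and 5 were higher in Sol, with a median of 4.60. In groups 1 to 3, 3 of 4 were higher in Sol with a median of 1.14, led by Hoxa2 (1.84 ± 0.20) and Hoxb3 (1.46 ± 0.18). In groups 6 to 13, 3 of 15 were higher in Sol and 12 did not pass, with a median of -0.11. Hoxa6 (2.45 ± 0.23) was the largest of these, and the count of 3 fell to 1 without the sevoflurane pair. The others, Hoxa7 and Hoxb8, lay below the negative controls on all MVe arrays. In Sol, Hoxa7 was above them on only 1 array and Hoxb8 on 2 (at least 1.05-fold).

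Other transcription factor genes differed in both directions, with 16 of 68 measured members higher in Sol, 18 in MVe and 34 not past the test. Over all genes 17.8% were higher in Sol and 14.5% in MVe. The 18 became 5 when genes with a higher-nucleus mean under the median gene value were left out. Of the 18, Lhx1 lay below the negative controls on all arrays. Evx1 and Dmbx1 lay above them on 1 MVe array each (at least 1.12-fold and 1.14-fold). Tfap2b, which encodes the factor AP-2 beta, was at 10.26, 10.21, 10.81 and 10.08 in Sol and below the negative controls in MVe (6.13 ± 0.16, at least 45.9-fold). Neurod6, a neuronal differentiation factor gene, was at 9.91, 9.22, 10.10 and 9.65 in MVe and below the negative controls in Sol (-5.33 ± 0.17, at least 33.1-fold higher in MVe). Tshz3 (2.14 ± 0.16), Gbx2 (1.90 ± 0.20, at least 2.67-fold) and Pbx3 (1.87 ± 0.15) were higher in Sol, and Nr2f2 was higher in MVe (-3.06 ± 0.22). Of 7 measured transcription factors of visceral sensory development, Drgx was higher in Sol (1.68 ± 0.19) and Phox2a, at 0.33 ± 0.16, did not pass (adjusted p = 0.151). The 1 member higher in MVe, Lbx1 (-0.47 ± 0.16), lost its call without the sevoflurane (adjusted p = 0.0584), O2 (0.0874), propofol (0.219) or Intralipos pair (0.114), in a fit over all 16 arrays (0.087), over all probe sets (0.0577) and with a trended and robust variance (0.0971).

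Genes of cholinergic and motor neurons were in part higher in Sol, which lies next to the vagal and hypoglossal motor nuclei. Of 10 measured members 5 were higher in Sol, 1 in MVe and 4 did not pass, with a median of 0.87. The vesicular acetylcholine transporter gene Slc18a3 was at 8.35, 7.85, 8.83 and 8.22 in Sol and at 4.93, 5.23, 5.40 and 6.24 in MVe (2.86 ± 0.24). Prph, the peripherin gene of motor and visceral neurons, differed by 3.51 ± 0.28, the motor neuron factor gene Tbx20 by 2.89 ± 0.21, the choline transporter gene Slc5a7 by 1.71 ± 0.17 and Chat, the synthesis enzyme gene, by 1.41 ± 0.18. The motor neuron factor genes Isl1 (0.23, adjusted p = 0.397) and Mnx1 (0.14, 0.617) did not pass. The 1 member higher in MVe was the acetylcholinesterase gene Ache (-0.67 ± 0.18), which lost its call without the sevoflurane (adjusted p = 0.062) or Intralipos pair (0.0615). The part of neighbouring motor nuclei in these values was not tested.

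Some further genes among the 15 leading in Sol belong to other classes. Fam107a, an actin-associated protein gene, had the largest difference of the genes named in this direction. It was at 16.68, 16.28, 16.02 and 16.21 in Sol and at 8.11, 8.93, 7.70 and 7.46 in MVe (8.25 ± 0.22, adjusted p = 4.09e-09, 304-fold). Calb1, the calcium buffer calbindin, was at 13.07, 13.48, 13.39 and 12.98 against 6.33, 6.74, 6.86 and 6.71 (6.57 ± 0.16). Neither gene overlapped between the nuclei. Pgr15l (6.25 ± 0.22) and Ecel1, a membrane peptidase gene (6.11 ± 0.20), completed this group. Ecel1 was above the negative controls on 1 of 4 MVe arrays, and with the others set to the controls it was 47.6-fold higher in Sol.

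The 15 genes leading in MVe likewise held some of other classes. Lamp5, a lysosome-associated membrane protein gene, was at 9.06, 9.47, 10.15 and 9.48 in Sol and at 15.64, 15.46, 16.02 and 15.84 in MVe (-6.20 ± 0.17, adjusted p = 4.41e-09, 73.5-fold higher in MVe). Inhba, which encodes the beta A subunit of activins and inhibins, was at 6.36, 6.87, 6.10 and 5.65 in Sol and at 11.85, 11.92, 11.66 and 12.06 in MVe (-5.63 ± 0.21, 49.4-fold). In neither gene did the nuclei overlap. The serine protease gene Htra1 (-5.18 ± 0.22) and the sphingosine phosphatase gene Sgpp2 (-4.93 ± 0.15) were higher in MVe as well.

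Genes of fast firing and thick axons were higher in MVe without exception on the list, which was compiled with earlier results of these data known. All 24 measured members passed in that direction, with a median of -3.94 and a range from -10.31 (Pvalb) to -0.99 (Cox6a2). Cox6a2, a subunit gene of cytochrome oxidase, lay below the negative controls on all Sol arrays and above them on 2 of 4 MVe arrays. Spp1, the osteopontin gene found in large hindbrain neurons, was at 12.70, 12.88, 12.97 and 12.87 in MVe and at 4.35, 4.11, 3.96 and 3.82 in Sol, below the negative controls (-8.80 ± 0.17, adjusted p = 5.92e-10, at least 291-fold higher in MVe). The neurofilament genes, which set axon calibre, were higher in MVe for the heavy chain Nefh (-5.55 ± 0.18), the medium chain Nefm (-4.15 ± 0.16) and the light chain Nefl (-3.46 ± 0.16). Nefh stood at 9.56, 9.73, 8.62 and 8.99 in Sol and at 15.01, 14.85, 14.57 and 14.68 in MVe, with no overlap. Genes of fast vesicle release moved with them: the calcium sensor Syt2 (-5.33 ± 0.17), complexin Cplx1 (-4.55 ± 0.16) and synaptobrevin Vamp1 (-3.68 ± 0.16). Esrrg, a nuclear receptor gene of oxidative metabolism, was higher in MVe as well (-5.13 ± 0.24).

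The matrix of perineuronal nets, which enwraps fast-firing neurons, was divided. Of 14 measured genes 6 were higher in MVe, 3 in Sol and 5 did not pass, with a median of -0.49. The link protein genes Hapln1 (-3.92 ± 0.17) and Hapln4 (-3.22 ± 0.27) led in MVe. Hapln1 was at 5.96, 5.57, 6.31 and 6.28 in Sol and at 10.16, 9.73, 10.05 and 9.86 in MVe. Aggrecan (Acan), the core proteoglycan of the net, was higher in MVe by a smaller amount (-1.08 ± 0.21), while neurocan (Ncan) was higher in Sol (0.86 ± 0.17).

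Sodium channel genes divided by subunit. Scn4b, the beta subunit of resurgent current, was at 4.36, 4.50, 4.88 and 4.33 in Sol and at 11.56, 11.37, 11.62 and 11.55 in MVe (-7.01 ± 0.16, adjusted p = 2.27e-09). The alpha subunits of mature axons, Scn1a (-4.77 ± 0.19) and Scn8a (-3.92 ± 0.17), were higher in MVe too. In the opposite direction Scn3a (3.45 ± 0.22), the beta subunit Scn3b (3.29 ± 0.18), Scn2a (3.19 ± 0.18), Scn9a (2.72) and Scn2b (0.79) were higher in Sol. Scn2a was at 11.76, 12.10, 12.81 and 12.40 in Sol and at 9.06, 9.02, 9.38 and 8.85 in MVe. Of 11 measured genes 5 were thus higher in Sol, 3 in MVe and 3 did not pass.

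Voltage-gated potassium channel genes also went both ways, 10 of 36 higher in MVe and 9 higher in Sol. Beside Kcna1, the low-threshold Kcna2 (-3.96 ± 0.16) and the fast delayed rectifier Kcnc1 (-2.81 ± 0.16) were higher in MVe. Kcna5 (3.54 ± 0.23, at least 6.33-fold), Kcng3 (2.57 ± 0.25, at least 2.89-fold) and the M-current subunit Kcnq5 (2.33 ± 0.19) were higher in Sol. The list median of 0.00 was -0.15 with median centring and 0.05 with quantile normalization. Kcnab3, an accessory subunit of the Kv1 channels, was at 5.95, 5.87, 6.04 and 6.02 in Sol and at 11.61, 11.18, 10.45 and 10.69 in MVe (-5.01 ± 0.21).

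Background potassium channels of the two-pore family, some of which are opened by volatile anesthetics, included one of the largest differences. Kcnk2 encodes TREK-1, an anesthetic-sensitive member. It was at 11.43, 11.14, 11.06 and 11.16 in Sol and at 5.21, 5.92, 4.13 and 4.21 in MVe (6.33 ± 0.26, adjusted p = 6.03e-08). In MVe 2 of 4 arrays lay above the negative controls, and with the other pair set to the controls Kcnk2 was 67.2-fold higher in Sol. Kcnk9, the TASK-3 gene, was between 12.75 and 13.43 in Sol and between 8.64 and 9.66 in MVe (3.80 ± 0.18). Kcnk10 (1.27 ± 0.16) was also higher in Sol, whereas Kcnk1 (-3.53 ± 0.16) and Kcnk12 (-1.01 ± 0.17) were higher in MVe, and 8 of the 13 measured genes did not pass, among them the TASK-1 gene Kcnk3 (0.33, 0.158).

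Among hyperpolarization-activated and calcium channel genes 9 of 20 were higher in Sol, 3 in MVe and 8 did not pass, with a median of 0.22. Hcn2, a pacemaker channel gene, was at 12.96, 12.54, 12.78 and 12.69 in MVe and at 9.60, 9.45, 9.16 and 9.10 in Sol (-3.41 ± 0.16). The auxiliary subunit genes Cacnb3 (4.39 ± 0.19) and Cacna2d1 (4.09 ± 0.17), the R-type Cacna1e (3.19 ± 0.22) and the T-type Cacna1g (2.27 ± 0.18) were higher in Sol, and Cacna2d3 was higher in MVe (-2.15 ± 0.21). Calcium-binding protein genes divided evenly, 10 higher in each nucleus and 10 not past the test. Besides Pvalb, the genes Cabp7 (-6.22 ± 0.20), Cabp1 (-3.53 ± 0.15) and calretinin, Calb2 (-2.17 ± 0.17), were higher in MVe, and Necab1 (5.68 ± 0.29) and Hpcal4 (3.88 ± 0.17) joined Calb1 in Sol.

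Inhibitory transmission differed in its transmitters and in its receptor subunits. Slc6a5, the glycine transporter gene that marks glycine neurons, was at 9.59, 10.55, 10.91 and 10.55 in Sol and at 13.98, 14.02, 14.10 and 14.31 in MVe (-3.70 ± 0.20, adjusted p = 3.47e-07). The vesicular inhibitory transporter gene Slc32a1 (-1.47 ± 0.16) and the GABA enzyme genes Gad2 (-0.98 ± 0.23) and Gad1 (-0.70 ± 0.18) were higher in MVe by less. Glycine receptor subunits went both ways. Glra1, the adult alpha subunit, was at 12.51, 12.13, 12.77 and 12.17 in MVe and at 9.80, 9.93, 10.78 and 9.31 in Sol (-2.44 ± 0.18), and the beta subunit gene Glrb was higher in MVe too (-1.65 ± 0.17). Glra3 was at 8.60, 9.16, 9.29 and 8.35 in Sol and below the negative controls in MVe (4.72 ± 0.18, at least 16.4-fold), and Glra2 was higher in Sol (2.49 ± 0.21). Over the 14 measured genes 7 were higher in MVe, 4 in Sol and 3 did not pass, and the 4 became 2 without the sevoflurane, O2 or propofol pair.

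GABA-A and GABA-B receptor genes, which include main targets of both anesthetics, were higher in Sol in 10 of 18 cases and in MVe in 4, with a median of 0.93. Gabrq, the theta subunit gene, had a Sol mean of 9.44 ± 0.46 (SD, n = 4) and lay under the negative controls in MVe (5.22 ± 0.18, at least 24.7-fold). Gabre, the epsilon subunit gene, was at 8.74, 9.41, 8.85 and 7.74 in Sol and at 5.13, 5.31, 4.98 and 3.85 in MVe (3.87 ± 0.16). Both subunits were thus separated on all arrays. Gabra4 (3.22 ± 0.18), Gabrg3 (2.52 ± 0.17) and Gabra2 (2.12 ± 0.17) were also higher in Sol. Gabrd (-1.85 ± 0.18), Gabrb2 (-1.63), Gabra6 (-1.47 ± 0.19) and Gabra5 (-0.70) were higher in MVe, although Gabrd and Gabra6 lay below the negative controls on all Sol arrays and were at least 2.12-fold and 2.02-fold higher in MVe.

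**Figure D3:**
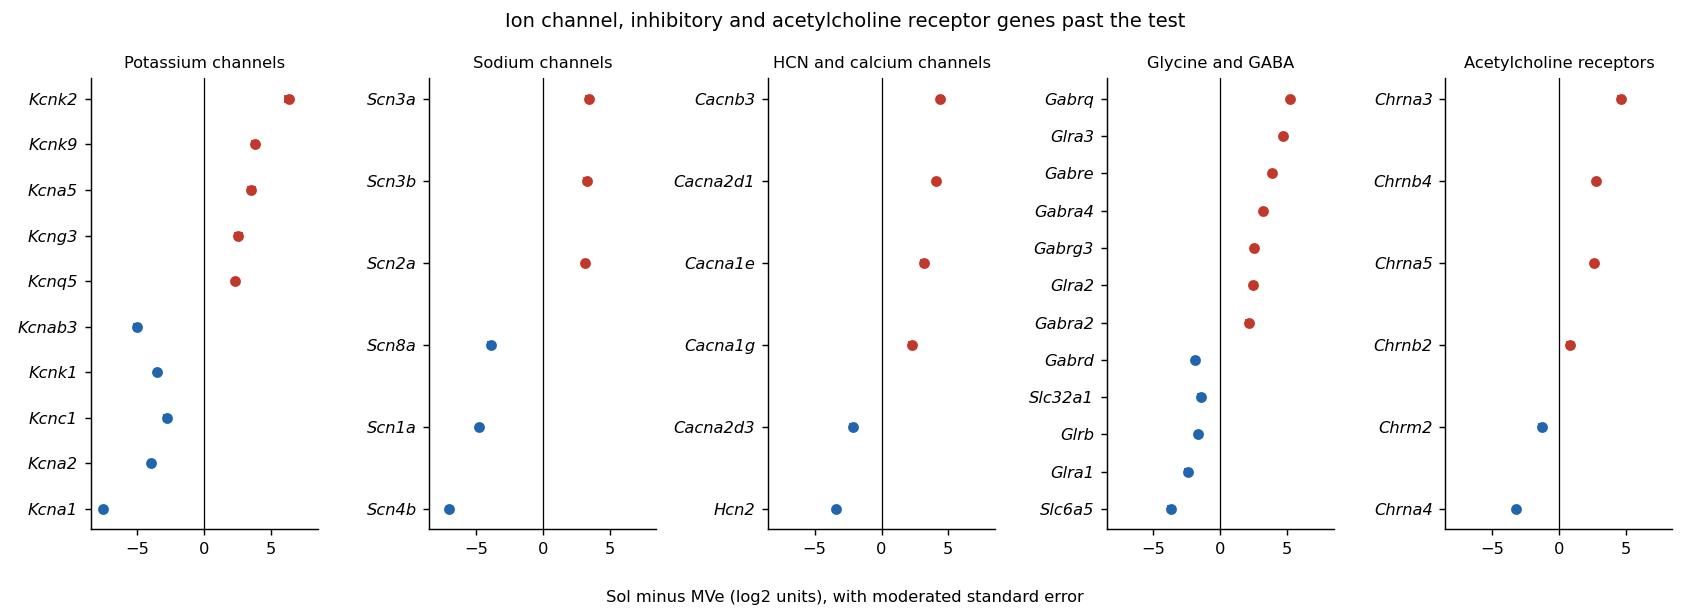
Difference Sol minus MVe in log2 units (x axis) for channel, inhibitory and acetylcholine receptor genes past the test (y axis, 1 panel per class), n = 4 pairs, with moderated standard errors that are mostly smaller than the points. Red points to the right of 0 are higher in Sol and blue points to the left are higher in MVe, and each of the 5 panels holds genes on both sides.

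Excitatory genes were balanced, 9 of 26 higher in each nucleus and 8 not past the test. Slc17a7, a vesicular glutamate transporter gene, was at 8.06, 7.54, 7.94 and 8.07 in MVe and at 4.31, 4.58, 4.82 and 4.63 in Sol (-3.32 ± 0.18), and Slc17a6, the main transporter of hindbrain neurons, differed by -0.65 ± 0.16. The AMPA subunit Gria3 (-1.88 ± 0.16) and the metabotropic Grm8 (-1.87 ± 0.24) were higher in MVe, and the NMDA subunits Grin3a (2.57 ± 0.22) and Grin2b (1.89 ± 0.16) in Sol.

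Acetylcholine receptor genes went both ways. Of 21 measured, 5 were higher in Sol and 3 in MVe, and 38.1% passed in either direction beside 32.3% over all genes. Some nicotinic subunit genes were higher in Sol. Chrna3 was at 11.65, 11.84, 11.70 and 11.15 in Sol and at 7.31, 7.87, 6.18 and 6.29 in MVe (4.67 ± 0.23, adjusted p = 1.95e-07), with Chrnb4 (2.79 ± 0.16) and Chrna5 (2.60 ± 0.15, at least 4.82-fold) beside it. The nicotinic genes Chrna4 (-3.20 ± 0.16) and Chrna7 (-0.80 ± 0.16) and the muscarinic receptor gene Chrm2 (-1.28 ± 0.20) were higher in MVe. The other 13 of the 21 acetylcholine receptor genes did not pass. The count of 5 higher in Sol was 3 without the O2 pair. Adrenergic receptor genes showed Adra2a (2.54 ± 0.18) and Adra1a (2.31 ± 0.22) higher in Sol and the other 6 of 8 not past the test, although 2 passed in MVe with median centring. Of 14 serotonin receptor genes 7 were higher in MVe and 2 in Sol, with a median of -0.54, and the 2 became 1 without the O2 or propofol pair. Htr2c was at 14.73, 14.39, 14.91 and 14.47 in MVe and at 10.69, 12.06, 11.88 and 11.75 in Sol (-3.03 ± 0.25), and Htr1a was higher in Sol (2.10 ± 0.19).

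**Figure D4:**
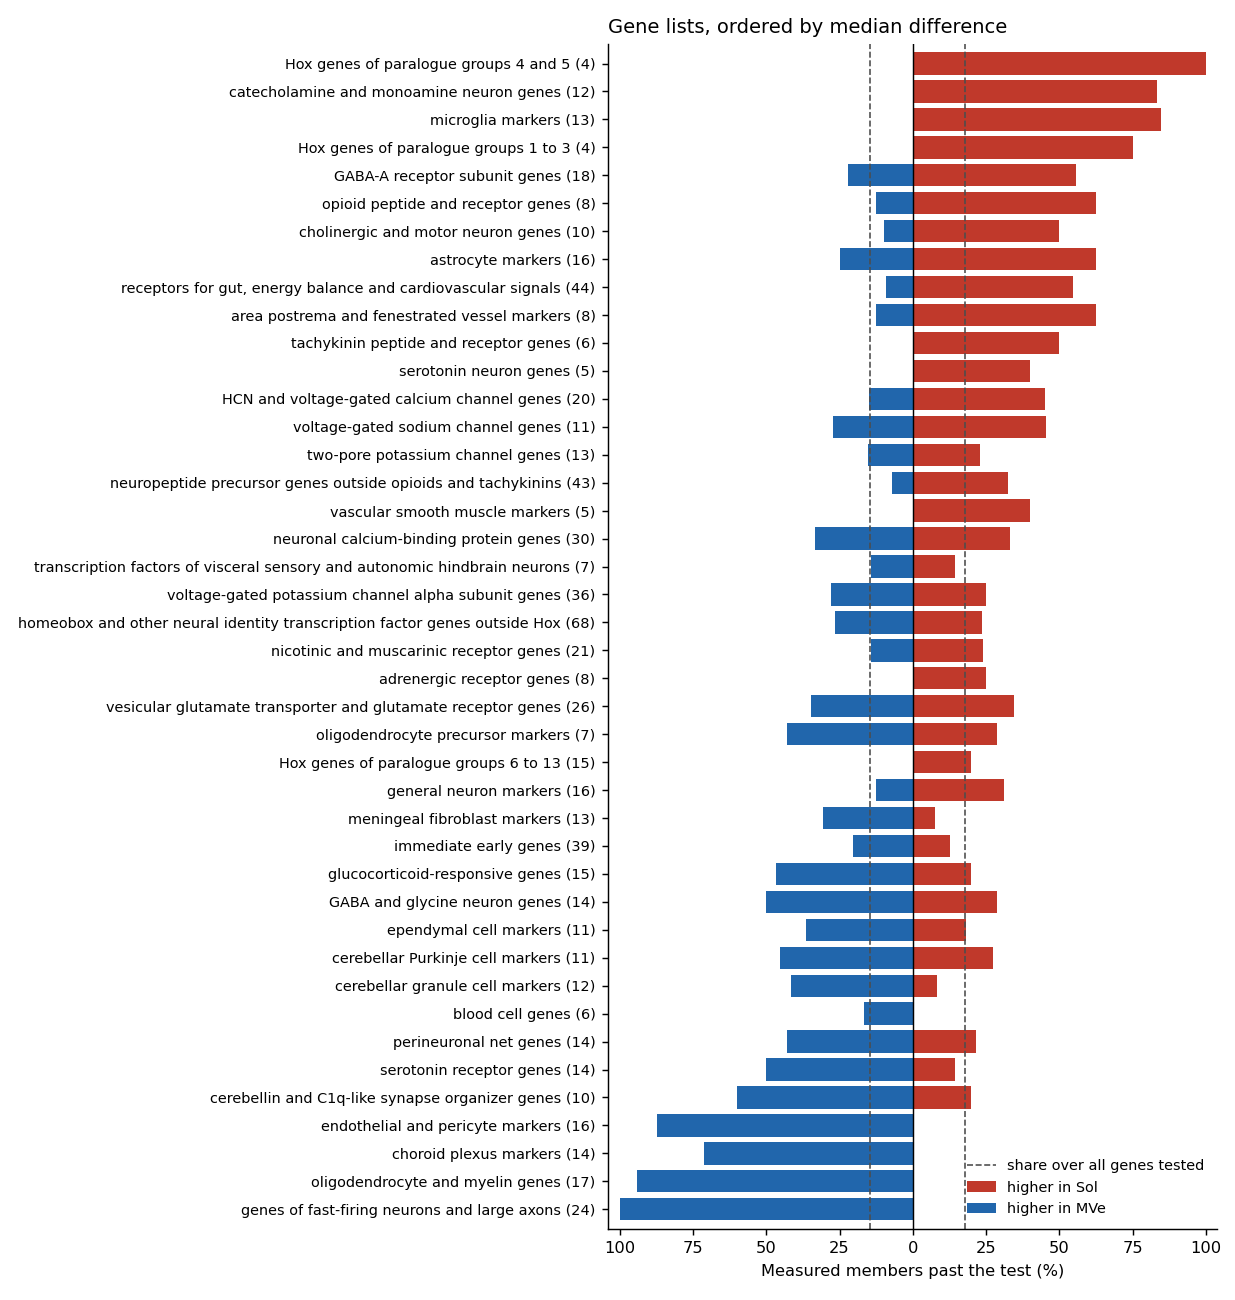
Share of the measured members of 42 gene lists that passed limma's test (x axis, in percent), to the right for genes higher in Sol and to the left for genes higher in MVe, with lists (y axis, number measured in brackets) ordered by median difference. Dashed lines mark the shares over all genes tested, 17.8% and 14.5%, and the fast-firing list reaches 100% on the MVe side with 24 genes. The lists were compiled with earlier results of these data known.

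Marker genes of glia and vessels moved with the nuclei. Oligodendrocyte and myelin genes were higher in MVe in 16 of 17 cases, with a median of -2.52. Mog, a myelin surface protein gene, was at 10.17, 10.51, 9.68 and 10.11 in Sol and at 14.16, 14.01, 13.65 and 13.61 in MVe (-3.74 ± 0.17, adjusted p = 7.79e-08). Gpr37 (-4.21 ± 0.16), Ermn (-3.88 ± 0.17) and Mag (-3.58 ± 0.17) showed the same direction, and the lineage factor Sox10 did not pass (-0.22 ± 0.22, 0.494). Over the list, the median level was 9.82 to 10.4 on the Sol arrays and 12.9 to 13.5 on the MVe arrays.

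Microglia markers were higher in Sol, 11 of 13 with a median of 1.44 and 0 higher in MVe. Csf1r, the receptor gene on which microglia depend, was at 9.93, 9.71, 8.27 and 8.45 in Sol and at 7.25, 7.08, 6.10 and 6.72 in MVe (2.30 ± 0.19). Aif1 (2.24 ± 0.17), P2ry12 (2.09 ± 0.21) and Cx3cr1 (2.01 ± 0.17) went the same way. Astrocyte markers were higher in Sol in 10 of 16 cases and in MVe in 4. Gfap, the intermediate filament gene of astrocytes, was at 17.48, 17.20, 16.98 and 17.16 in Sol and at 14.05, 14.41, 13.72 and 14.66 in MVe (2.99 ± 0.19), while the gap junction gene Gjb6 was higher in MVe (-2.08 ± 0.16). Endothelial and pericyte genes were higher in MVe in 14 of 16 cases (median -0.93), led by the lipid transporter gene Mfsd2a (-2.30 ± 0.16) and the pericyte gene Rgs5 (-1.59 ± 0.17).

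General neuron markers had a median of -0.11, with 5 of 16 higher in Sol, 2 in MVe and 9 not past the test. The 2 became 6 with median centring, 6 with a trended and robust variance and 4 in a fit over all 16 arrays, so the split between the nuclei depended on scaling and model. Rbfox3, the NeuN gene, had means of 11.96 in Sol and 11.76 in MVe (0.21 ± 0.21, adjusted p = 0.495). The growth-associated gene Gap43 (3.60 ± 0.16) and neurogranin, Nrgn (3.21 ± 0.23), were higher in Sol, and Thy1 (-1.95 ± 0.18) was higher in MVe. The part of the glial and vessel markers in the neuronal differences was not tested.

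**Figure D5:**
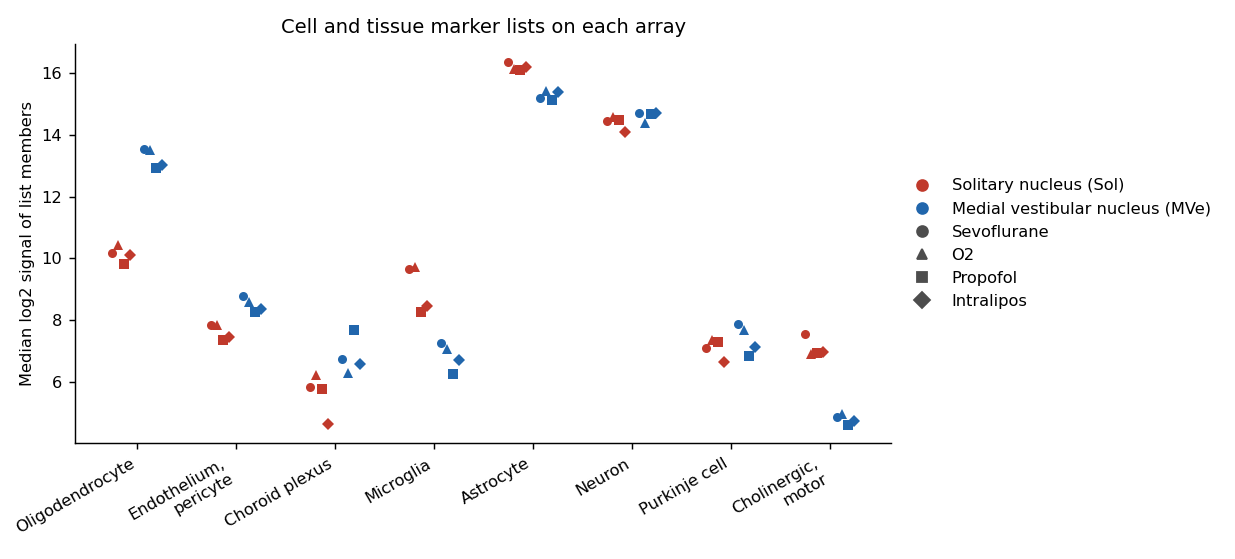
Median log2 signal (y axis) of the measured members of 8 cell and tissue marker lists (x axis) on each of the 8 arrays, red for Sol and blue for MVe, with a symbol for each treatment. Oligodendrocyte and endothelial medians were higher on every MVe array and microglia and astrocyte medians on every Sol array.

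Markers of tissue that borders the nuclei were also read. Choroid plexus genes, which belong to the tissue of the fourth ventricle, were higher in MVe in 10 of 14 cases and 0 were higher in Sol. Ttr, the transthyretin gene of the choroid plexus, was at 12.18, 15.10, 13.28 and 7.18 in Sol and at 17.11, 16.99, 18.25 and 17.89 in MVe. The nuclei did not overlap, but the Sol arrays were far apart, lowest with Intralipos and highest with O2. The difference was -5.63 ± 1.00 (adjusted p = 0.00141), and it did not pass with a trended and robust variance estimate (0.113). Kcnj13 (-3.52 ± 0.35) and Clic6 (-2.46 ± 0.32) followed. The list median by pair was -0.91 for sevoflurane, -0.33 for O2, -1.67 for propofol and -1.41 for Intralipos. The part of choroid plexus tissue in other MVe values was not tested.

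Cerebellar markers did not move in 1 direction. Of 11 Purkinje cell markers 5 were higher in MVe, among them Pcp2 (-3.35 ± 0.17), which was at 8.05, 8.45, 7.61 and 8.44 in MVe and at 4.71, 4.66, 4.54 and 5.25 in Sol. Another 3 were higher in Sol, Calb1, Ppp1r17 (6.50 ± 0.18, at least 34.7-fold) and Slc1a6 (1.08). Of 12 granule cell markers 5 were higher in MVe and 1 in Sol (Mab21l1, 0.71 ± 0.19), and the 1 became 0 without the O2 or propofol pair and 2 without the Intralipos pair. Gabra6, which defines granule cells, was among those higher in MVe (-1.47 ± 0.19, at least 2.02-fold), between 5.18 and 6.21 on the MVe arrays. The part of cerebellar tissue in the MVe values was not tested. Cerebellin and C1q-like synapse organizer genes were higher in MVe in 6 of 10 cases, led by C1ql3 (-1.44 ± 0.20). Among meningeal genes Ptgds (-2.91 ± 0.19) and Ogn (-2.24 ± 0.17) were higher in MVe and Aldh1a2 (3.54 ± 0.33) in Sol, whereas the collagen genes Col1a1 (-0.13) and Col1a2 (-0.04) did not pass.

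The next comparison asked whether the difference between the nuclei itself changed under anesthesia, with the sevoflurane and propofol pairs set against the O2 and Intralipos pairs. Fos and Nr4a1, immediate early genes that neurons transcribe soon after activation, were among the 3 negative genes with the smallest p. Fos was at 9.10, 6.63, 7.48 and 7.23 in Sol and at 11.63, 7.16, 9.60 and 7.27 in MVe. Sol minus MVe was thus -2.53 with sevoflurane and -2.12 with propofol but -0.53 with O2 and -0.04 with Intralipos, a difference of -2.04 ± 0.35. Nr4a1, another early gene, was at -2.31 and -1.20 with the anesthetics and at 0.33 and 1.21 with the controls (-2.53 ± 0.46). Egr1 was at -0.50 and -1.05 with the anesthetics and at 0.76 and 2.65 with the controls (-2.48 ± 0.56). Junb, also an early gene, differed by less (-0.68 ± 0.33). The other of those 3 negative genes was Iqcg (-1.90 ± 0.33), and Necab1 had the smallest p among positive genes (1.60 ± 0.34). None of them passed: 0 of the 15037 genes did in limma's test, all at an adjusted p of 0.9999 or above, while 553 genes (3.68%) had an unadjusted p under 0.05, of which 264 had a positive and 289 a negative value. The comparison rests on 2 pairs against 2, and without the O2 pair 1 gene, Ttr, passed.

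The same genes were also compared over all 4 pairs. Of 39 immediate early genes 5 were higher in Sol, 8 in MVe and 26 did not pass, against the 17.8% and 14.5% over all genes. Fos had an overall difference of -1.31 ± 0.36 (adjusted p = 0.0166), which did not pass without the sevoflurane pair (-0.90, 0.0854) or the propofol pair (-1.04, 0.0674), or in a fit over all 16 arrays (0.0908). Dusp1, a phosphatase gene, was higher in MVe (-1.99 ± 0.28), while Nr4a2 (2.18 ± 0.30) and Nr4a3 (1.69 ± 0.17) were higher in Sol. The 8 early genes higher in MVe became 3 without the sevoflurane pair, 4 without the propofol pair and 13 with median centring. Among 15 glucocorticoid-responsive genes 7 were higher in MVe, 3 in Sol (Fkbp5 at 0.90 ± 0.16, Zbtb16 at 0.82 ± 0.17 and Mt2A at 0.54 ± 0.17) and 5 did not pass, and the 7 became 3 without the sevoflurane pair. Sgk1, a kinase gene of that list, was at 9.25, 8.87, 9.05 and 9.36 in Sol and at 12.73, 10.41, 12.38 and 12.77 in MVe (-2.94 ± 0.29), with the MVe O2 array below the other MVe arrays.

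The last comparison asked whether the difference held in both array sets. Calcr was among the positive genes with the smallest p. Its Sol minus MVe was 4.97 and 5.19 in the sevoflurane and O2 pairs and 3.22 and 2.16 in the propofol and Intralipos pairs (2.39 ± 0.40). Cpne5, a copine gene, was at 5.61 and 5.73 against 3.79 and 3.48 (2.03 ± 0.32), and Sostdc1 had a difference of 1.84 ± 0.34. Again 0 genes passed limma's test of this change (smallest adjusted p = 0.5004), and 884 genes (5.88%) had an unadjusted p under 0.05. Without the propofol pair 4 genes passed, Adtrp, Calcr, Grp and Ttr, and without the O2 pair 1, Ccn1. Fitted separately, the sevoflurane and O2 arrays gave 3797 genes past the test between the nuclei and the propofol and Intralipos arrays 3286. The 2527 genes called in both sets in the same direction were 66.6% of the first and 76.9% of the second, and 5 genes were called in opposite directions. Across all genes the differences in the sets had a Pearson correlation of 0.887, over genes that are not independent replicates. Of the genes called on the 8 arrays, 0 had opposite signs in the sets. This count was largely set by the test on the same arrays, which a gene of opposite signs can hardly pass.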

How the data were processed

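Per the labels' protocols, each array held RNA of 1 laser-cut nucleus from 1 treatment. The authors deposited 1 log2 signal for each probe set and array. Affymetrix Expression Console 1.3.0 is the tool that the submitters' processing notes name. How probes were summarized, and on which genome build, is not given in the sources used here, and the log2 scale was inferred from the range of the values, so every fold rests on it. The table held 24834 probe sets, of which 1646 were controls. Of the other 23188, 15049 had 1 gene symbol, 0 had several and 8139 had none here. Symbols came from the platform annotation through gene identifiers. For the 10 genes with over 1 probe set the brightest was kept, which left 15037 genes, with no filter on dim genes.

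Sol was compared with MVe by lmFit and eBayes in limma 3.58.1 (R 4.3.3), with treatment as a block, 3 residual and 7.38 prior degrees of freedom, two-sided, adjusted by Benjamini-Hochberg over all genes (threshold 0.05). The pairing comes from the treatment labels. Interaction terms tested whether the difference changed with anesthesia or array set, and the code was tested on simulated data. The labels do not tell extraction or hybridization dates, and the number of arrays limits the precision. The text names the 4 markers and the 15 largest differences each way among genes that passed with 1 sign in 4 of 4 pairs and a mean at or above the median gene value (6.89). From up to 6 members per list and 3 genes per direction of each interaction it names a part. Other list members were chosen after their values were seen. The 42 lists held 772 genes, of which 676 were measured. Members and lists were chosen with earlier results of these data known, so no test was run on a list. Alternatives covered the variance model, scaling, probe choice, dim genes, the block, the 16-array fit, array sets, each pair left out and a minimum fold. The other 8 arrays entered the 16-array fit only. Figures were drawn with matplotlib 3.10.9 in Python 3.11.15.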

Additional observations from a re-analysis of the deposited data

Results flagged for a closer look

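For each of 226 named genes and 42 list medians the 4 paired differences were searched for 1 pair far from the other 3, and the array levels of 30 leading genes likewise. This picked out 10 gene differences, 1 level and 2 lists, and chance alone marks about 1 in 20 groups. Differences are Sol minus MVe in log2 units.

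The O2 pair stood apart for Sgk1, a glucocorticoid-induced kinase gene, at -1.54 against -3.48 to -3.33 in the others. It did so too for Cabp7 (-6.95 against -6.01 to -5.95), Scn8a (-3.50 against -4.08 to -4.02), Kcnq5 (2.99 against 2.04 to 2.20) and Myh11, a smooth muscle myosin gene (1.23 against 2.12 to 2.22). The Intralipos pair stood apart for Acan (-1.90 against -0.91 to -0.74), Gabrg3 (2.01 against 2.65 to 2.72) and Grin2b (1.49 against 1.98 to 2.06). The serotonin receptor gene Htr2a was at -2.41 in the sevoflurane pair against -1.42 to -1.33. Kcne2, a choroid plexus channel gene, was at -1.62 in the propofol pair against -0.90 to -0.77. The level of the protease gene Htra1 on the Sol O2 array was 6.72, against 5.18 to 5.32 on the other Sol arrays. The median of the calcium-binding list was -0.03 in the sevoflurane pair against 0.08 to 0.10, and that of the voltage-gated potassium channel list was 0.17 in the O2 pair against -0.02 to -0.01.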

How the results depend on the processing

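The counts of 2673 genes higher in Sol and 2183 higher in MVe stayed within 1.5 times with a trended and robust variance, quantile normalization, median centring, other probe choices, a filter on dim genes, all 16 arrays and without the treatment block (1994 and 1554, and 185 and 150 of the list members). Against 207 list members higher in Sol and 189 in MVe, the O2 and Intralipos arrays alone gave 1243 and 931 genes and 118 members in MVe. The propofol and Intralipos arrays alone gave 1763 genes higher in Sol. These fits have fewer arrays. A minimum of 1 log2 unit gave 486 and 350 genes and 105 and 73 members, by its own construction. Leaving out 1 treatment pair in turn gave 2172 to 2508 genes in Sol and 1681 to 1941 in MVe. The count of 0 for anesthesia became 0 to 1 and that for array set 0 to 4, and 1 over all probe sets; the cause was not tested. No named gene past the test changed direction (0 of 220), in fits that reuse the same arrays. Under some left-out pair 23 lost their call, 19 of them with a difference under 1. Medians of 7 lists changed sign with scaling: visceral transcription factors (0.04, -0.12 centred, 0.05 quantile), neuropeptides (0.11, -0.05, 0.17), calcium-binding (0.07, -0.08, 0.07), Kv channels (0.00, -0.15, 0.05), two-pore channels (0.12, -0.03, 0.14), acetylcholine receptors (-0.01, -0.16, 0.01) and smooth muscle (0.08, -0.07, -0.08). With 4 arrays a nucleus, small differences near the negative controls cannot be resolved, and 72 called genes lay at that level on all arrays.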

Other observations

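The 5 genes called in opposite directions in the array sets were the olfactory receptor genes Or4c124b (-1.16 in the sevoflurane and O2 pairs, 0.83 in the propofol and Intralipos pairs), Or4f52 (-1.23 and 0.83) and Or8b51 (0.89 and -0.81), the receptor gene P2ry10b (0.79 and -1.0) and the cofactor gene Vgll4 (0.78 and -1.03). On the 8 arrays Or4c124b had a difference of -0.17 ± 0.34 and Or4f52 of -0.20 ± 0.36, and neither passed.

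Several genes with a large difference have a partner that did not follow. Gcg was high in Sol while Glp1r, the receptor gene for its product, lay below the negative controls in both nuclei on average (3.96 and 3.88). Tph2 was high in Sol while Slc6a4 was at 4.84 there. Slc18a2, the vesicular transporter that Tph2 and Th neurons share, was higher in Sol.

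Oligodendrocyte precursor genes went both ways, with Olig1 (-2.83 ± 0.17) and Olig2 (-1.39 ± 0.20) higher in MVe and Gpr17 (1.56 ± 0.22) and Pdgfra (1.00 ± 0.20) higher in Sol. Of 11 ependymal genes 4 were higher in MVe and 2 in Sol, among them Ak7 (-1.48 ± 0.34) in MVe and Pltp (1.63 ± 0.16) in Sol. Of 6 blood genes 1 was higher in MVe, the hemoglobin gene Hbb-b1 (-0.81 ± 0.24), and it lost its call without the sevoflurane pair (adjusted p = 0.124) or the O2 pair (0.0847). Of 5 smooth muscle genes Myh11 (1.94 ± 0.20) and Tagln (1.91 ± 0.25) were higher in Sol.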
